A study of Mus musculus with 11 samples.

Results

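A set of 10 genes that mark macrophages was followed through RNA-seq libraries of mouse forelimb buds: Csf1r, C1qa, C1qb, C1qc, Fcgr1, Cx3cr1, Ptprc, Tyrobp, Aif1 and Adgre1. They were taken by exact gene name from the 47517 gene names of the count table, and each of the 10 had 1 row. All samples were forelimb buds of C57BL/6 background embryos at E10.5. The 5 control libraries came from Gmnn +/f; Prx-Cre embryos and the 6 mutant libraries from Gmnn f/f; Prx-Cre embryos, so both groups carried the Cre transgene and at least 1 floxed Gmnn allele. Gmnn encodes Geminin, which restrains the licensing of replication origins, and Prx-Cre is active mainly in limb bud mesenchyme. Embryos came from 4 litters, called A to D. Litter A held controls 1 and 2 with mutants 1 and 2, litter B control 3 with mutant 6, litter C control 4 with mutant 5, and litter D control 5 with mutants 3 and 4.

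Macrophages of the early embryo descend from yolk sac blood progenitors and enter limb tissue from outside it, as cells separate from the mesenchyme. They depend on the receptor Csf1r, recognise dying cells through surface receptors and bridging proteins, and engulf and digest them. The 10 genes serve different steps of that life: C1qa, C1qb and C1qc encode the chains of complement C1q, Fcgr1 and Tyrobp an Fc receptor and a signalling adaptor, Aif1 a calcium-binding protein of the engulfing membrane, and Csf1r, Cx3cr1, Adgre1 and Ptprc surface receptors. In whole limb buds, fewer cells of a type and less RNA per cell cannot be told apart, so a level here is that of the tissue.

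Total counts were 14721181 to 19733288 per library, and 3 reads of a gene equalled 0.154 to 0.21 CPM, the count scaled to library size. Gmnn was 139 to 239 CPM in controls and 99.5 to 138 CPM in mutants, without overlap. Control 5 stood apart from the other controls. It had 26.1 CPM of the muscle gene Acta1 against 0.523 to 4.75 CPM, and 3.15 CPM of the distal limb gene Hoxd13 against 13.2 to 36.0 CPM. Haemoglobin genes took 1.34% to 3.30% of counts in controls and 1.69% to 5.44% in mutants. A library measure set by transcripts with long runs of T, the T-run index, was 1.86 to 2.30 log2 units in controls and 1.53 to 2.11 in mutants.

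Macrophage markers were rare in every bud, and their level differed widely between litters. The 10 genes together had 311, 180, 596, 400 and 45 reads in controls 1 to 5, and 525, 639, 162, 187, 250 and 779 reads in mutants 1 to 6. Control 5 was lowest and mutant 6 highest. In CPM the sum was 17.1 ± 11.5 (SD, n = 5) in controls and 26.6 ± 16.0 (SD, n = 6) in mutants, and the groups overlapped widely. Litter B averaged 40.1 CPM, litter A 24.8, litter C 20.2 and litter D 8.38. Within litters the mutant level was 2.82 times the control level in litter A, 1.47 times in B and 3.49 times in D, but 0.735 times in C. Averaged within litters the ratio was 2.05, a description for which no test was made, since the sum is a score over chosen genes. Haemoglobin share, a measure of blood in the tissue, was also higher on average in the mutants of each litter, and its part in the marker level was not tested beyond the covariate fit given further on.

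**Figure D1:**
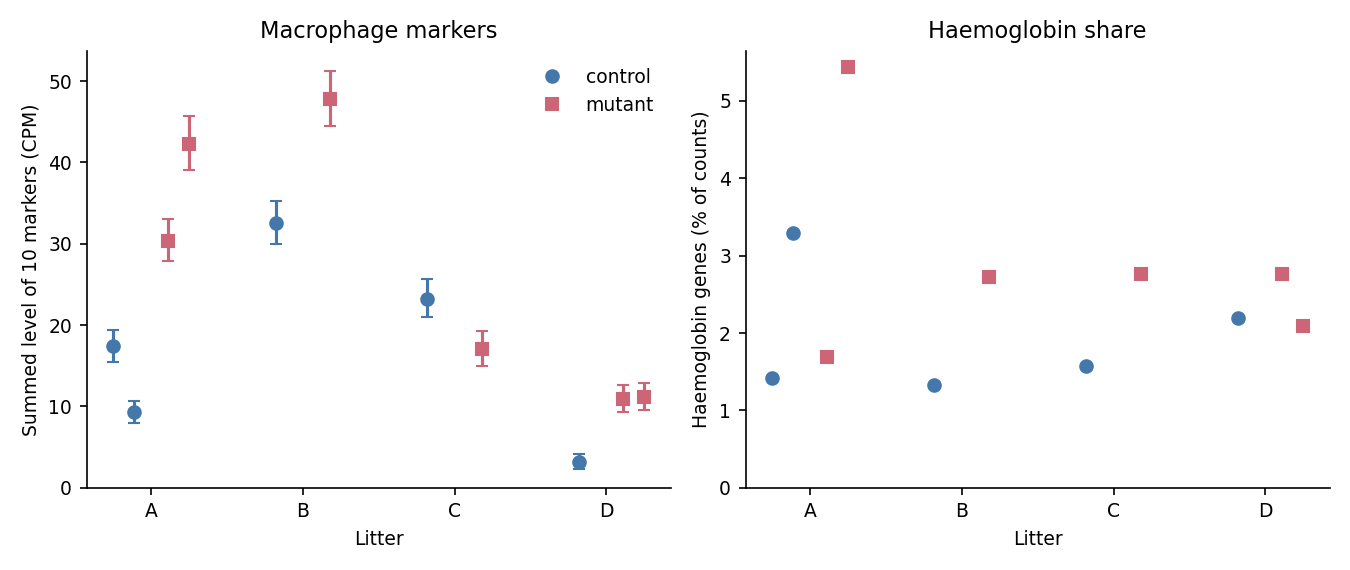
Left, summed level of the 10 markers in CPM (y axis) for each library by litter (x axis); bars are exact 95% Poisson intervals of the read sum and cover counting error only. Right, haemoglobin genes as percent of counts in the same libraries. Control 5 is lowest at 3.15 CPM and mutant 6 highest at 47.8 CPM, and mutant 2 has the highest haemoglobin share at 5.44%.

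The 3 C1q chains are secreted mainly by macrophages and bind antibody complexes and dying cells. Their genes lie side by side on mouse chromosome 4 (mm10), all on the minus strand: C1qb at 136880129 to 136886187, C1qc at 136889804 to 136893065 and C1qa at 136895917 to 136898803. RefSeq start sites (GRCm38.p6) were found for 6 of the 10 markers, with 7 windows of 250 bases before a start. PU.1, the ETS factor encoded by Spi1 that directs many macrophage genes, binds purine-rich sites with the core GAGGAA. This core, on either strand, was in the windows of 5 of the 6 genes (C1qb, C1qc, Fcgr1, Aif1 and the first of the Ptprc starts) and not in that of Cx3cr1. It was in 23.4% of 32536 distinct windows of all genes. The longer form GAGGAAGT was in 1 window of the markers, that of C1qc, and in 2.45% of all windows; each such match also holds the core. A match is a description of letters, not a measured site. Of the windows with the core, 4 are shown as examples, with the core or its reverse complement in capitals. The bases after the start used for C1qb were not found in the first part of a GENCODE M21 transcript of the gene. Those of the others shown were found there, though not always at its first base. The windows of C1qc and Aif1 overlap the ends of their gene spans.
C1qb (chr4:136886201-136886450, minus strand): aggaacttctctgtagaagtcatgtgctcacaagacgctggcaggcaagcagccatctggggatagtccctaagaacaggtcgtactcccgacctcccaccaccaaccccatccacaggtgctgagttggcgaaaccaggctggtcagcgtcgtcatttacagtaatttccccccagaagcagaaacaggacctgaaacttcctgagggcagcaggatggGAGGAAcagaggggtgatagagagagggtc
C1qc (chr4:136892915-136893164, minus strand): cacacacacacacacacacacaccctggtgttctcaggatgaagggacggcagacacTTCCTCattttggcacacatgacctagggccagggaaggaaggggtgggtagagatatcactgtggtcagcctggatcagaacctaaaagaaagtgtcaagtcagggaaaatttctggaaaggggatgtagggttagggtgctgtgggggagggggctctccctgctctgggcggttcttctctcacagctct
Fcgr1 (chr3:96293970-96294219, minus strand): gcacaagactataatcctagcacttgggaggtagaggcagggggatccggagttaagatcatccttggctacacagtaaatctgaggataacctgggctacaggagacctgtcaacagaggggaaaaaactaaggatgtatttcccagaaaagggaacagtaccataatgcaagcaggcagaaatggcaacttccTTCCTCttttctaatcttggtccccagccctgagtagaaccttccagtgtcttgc
Aif1 (chr17:35176053-35176302, minus strand): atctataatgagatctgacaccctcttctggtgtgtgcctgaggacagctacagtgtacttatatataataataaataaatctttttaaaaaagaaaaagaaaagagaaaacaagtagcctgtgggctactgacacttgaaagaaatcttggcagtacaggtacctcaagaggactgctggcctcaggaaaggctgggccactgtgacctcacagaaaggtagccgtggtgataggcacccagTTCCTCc

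C1qb gave the most reads of any marker. It had 126, 40, 183, 132 and 21 reads in controls 1 to 5 and 199, 207, 43, 70, 71 and 263 reads in mutants 1 to 6. Both mutants of litter A lay above both of their control littermates, as did both mutants of litter D above control 5, while mutant 5 lay below control 4 in litter C. The log2 fold change was 0.86 (SE 0.35), with an unadjusted p of 0.0288 and an adjusted p of 0.185 by the quasi-likelihood F test of edgeR, in which litter was a block. Without control 2 the fold change of C1qb was 0.55, and without litter A it was 0.40. C1qc had 4, 6, 28, 20 and 1 reads in controls and 6, 47, 9, 8, 4 and 57 in mutants. Its high libraries were mutants 2 and 6 and controls 3 and 4, so the groups overlapped, and the estimate of 1.36 on the log2 scale carried an SE of 0.71 (edgeR adjusted p 0.298). It was 0.48 without mutant 2, 2.12 without control 4 and 2.12 without mutant 5. C1qa had 12, 7, 16, 8 and 0 reads in controls and 10, 31, 5, 3, 6 and 11 in mutants, with only mutant 2 clear of the control range (0.80, SE 0.57, edgeR adjusted p 0.450, and 0.26 without mutant 2). Per exon length, all libraries pooled, C1qb had 11.9 times the reads of C1qa and 12.7 times those of C1qc, although the protein holds the 3 chains in equal numbers. In GENCODE M21 none of the 3 shares exon bases with another gene.

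Tyrobp (chromosome 7, 30413760 to 30417585, plus strand) encodes DAP12, the adaptor through which receptors such as Trem2 signal in myeloid cells. It came closest of the 10 to the threshold. Controls 1 to 5 had 44, 19, 102, 77 and 9 reads and mutants 1 to 6 had 143, 166, 35, 48, 56 and 184. The mutants of litters A, B and D were each above every control littermate, and mutant 5 was below control 4. Controls averaged 2.82 ± 2.15 CPM (SD, n = 5), and mutants averaged 6.60 ± 4.09 CPM (SD, n = 6). The groups overlapped, with control 3 of litter B above the mutants of litters C and D. The log2 fold change was 1.51 (SE 0.38, unadjusted p 0.00176), and at an edgeR adjusted p of 0.0555 it did not pass 0.05. By exact two-sided permutation of genotype within litters, p was 0.0278, where the smallest p the 72 arrangements allow is 0.0139.

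Aif1 (chromosome 17, 35170991 to 35176068, minus strand) encodes Iba1, a protein that binds actin where macrophages ruffle and engulf. It had 8, 14, 41, 18 and 2 reads in controls and 39, 42, 19, 19, 15 and 46 in mutants. The lowest mutant was above controls 1, 2 and 5, and mutants were close to their control littermates in litters B and C. The log2 fold change was 1.34 (SE 0.41, unadjusted p 0.00635, edgeR adjusted p 0.0918), and the exact permutation p was 0.0278. Fcgr1, the high-affinity receptor for IgG, had 8, 13, 17, 15 and 1 reads in controls and 24, 28, 8, 0, 9 and 24 in mutants. Mutants 1, 2 and 6 exceeded all controls in reads, yet mutant 4 had none, and the estimate of 0.92 on the log2 scale (SE 0.55) did not pass (edgeR adjusted p 0.364).

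Csf1r and Adgre1 had the estimates nearest 0 of the 10. Csf1r, the receptor for the growth factors Csf1 and Il34, had 46, 32, 68, 44 and 3 reads in controls and 32, 49, 18, 14, 23 and 53 in mutants. The groups overlapped and control 5 was lowest by far (log2 fold change 0.21, SE 0.34, edgeR adjusted p 0.774), and without control 5 the value was -0.080. Of its exon bases in M21, 15.1% also lie in Hmgxb3 on the other strand. The count table used GENCODE M9, with 4885 exon bases for Csf1r against 5774 in M21, and the overlap there was not computed. Counting ignored strand, so the count of Csf1r is uncertain wherever the counted exons overlap. Adgre1, which encodes a classical surface antigen of mouse macrophages, had 4, 5, 39, 26 and 0 reads in controls and 9, 10, 1, 0, 4 and 28 in mutants. Most of its reads were in litter B and control 4, and the log2 fold change was -0.08 (SE 0.60, edgeR adjusted p 0.956). Leaving out 1 library at a time gave -0.34 (without control 1) to 0.63 (without control 4).

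Cx3cr1, the receptor for the membrane-bound chemokine fractalkine, had 42, 35, 78, 48 and 4 reads in controls and 56, 40, 18, 15, 46 and 73 in mutants. In CPM its mutant mean was above the control mean in all 4 litters, by 0.48, 0.07, 0.17 and 1.53 log2 units in A to D. The fitted log2 fold change was 0.50 (SE 0.25, edgeR unadjusted p 0.0693, adjusted p 0.275). The exact permutation p, not adjusted over the 10 markers, was 0.0139, the smallest the design allows. Without control 5 the fold change was 0.31. Ptprc, which encodes the pan-leukocyte phosphatase CD45, had 17, 9, 24, 12 and 4 reads in controls and 7, 19, 6, 10, 16 and 40 in mutants. Its 4 litter differences were also above 0, at 0.11, 0.85, 0.57 and 0.61, with a fitted difference of 0.57 (SE 0.39, edgeR adjusted p 0.424).

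**Figure D2:**
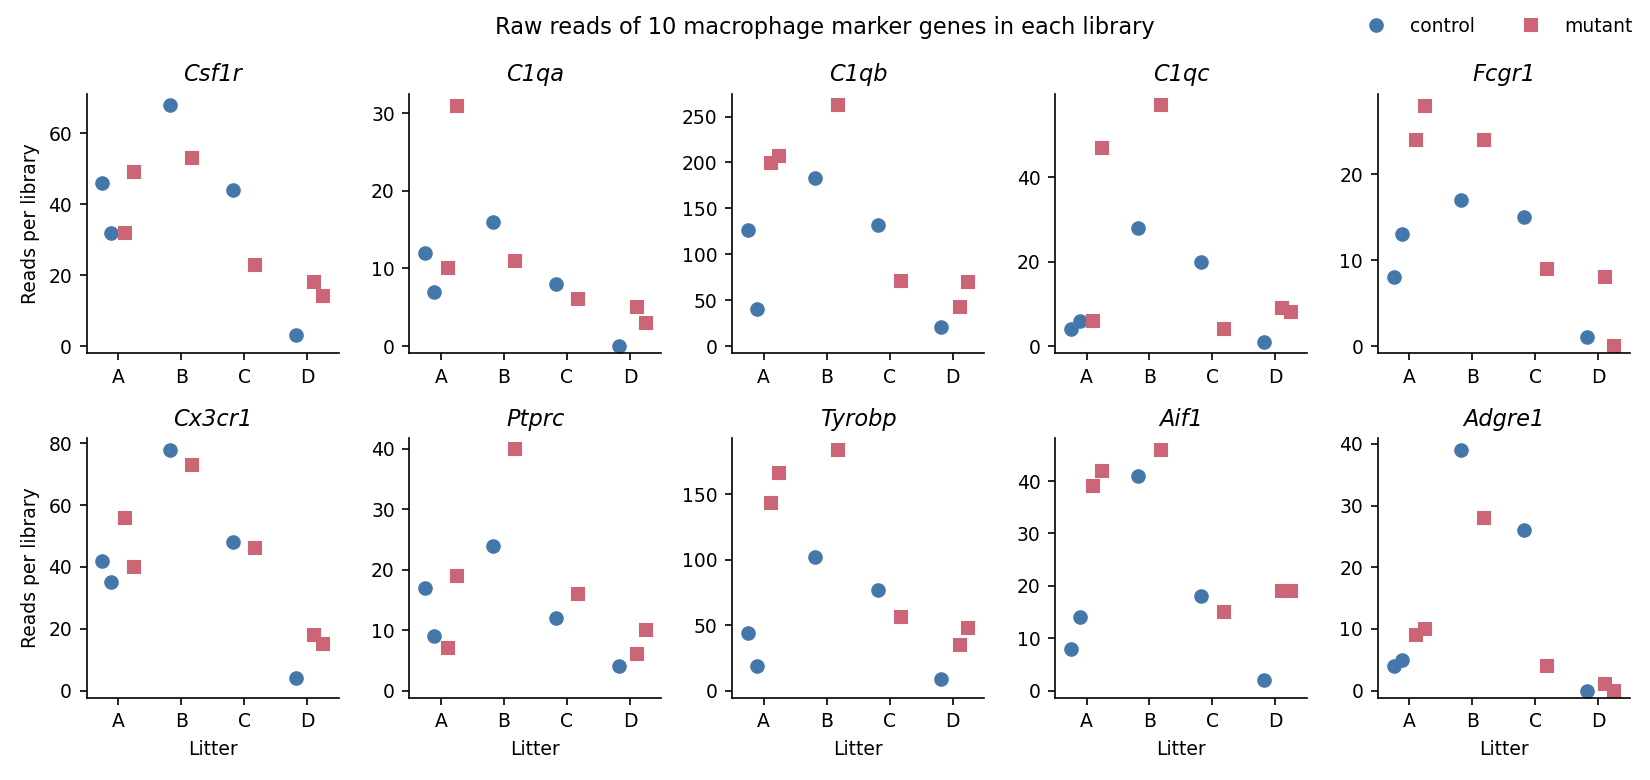
Raw reads (y axis) of each marker in each library, by litter (x axis); circles are the 5 controls and squares the 6 mutants. Control 5 of litter D is low for all markers, litter B is high for most, and mutants sit above controls in litter A for Tyrobp, C1qb, Aif1 and Fcgr1.

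Across the list, 0 of the 10 markers passed an edgeR adjusted p of 0.05, against 2.18% of the 15821 genes tested. At an unadjusted p under 0.05, 3 of the 10 (C1qb, Tyrobp and Aif1) were higher in mutants, against 9.84% of all genes. The log2 fold change was above 0 for 9 of the 10, against 50.7% of all genes, and its median was 0.83 against 0.0038 over all genes. These 9 share libraries and vary together, so they are not 9 separate observations. The CPM of the groups overlapped for all 10 markers, where they did not overlap for 2.59% of all genes. Only 2 of the 10, Cx3cr1 and Ptprc, were higher in mutants in all 4 litters, against 12.5% of genes. All 10 were higher in mutants in litters A and D, 7 in litter B and 2 in litter C. The share of all genes by litter was not computed, so these counts have no background. Litter D has control 5 as its only control, and Adgre1 there had 1 and 0 reads in mutants against 0.

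Spread between libraries was large for these genes. The biological coefficient of variation, edgeR's estimate of spread beyond counting, had a median of 38.7% over the 10 markers, against 28.5% for genes under 10 CPM and 15.8% for all genes. It ran from 22.5% for Cx3cr1 to 68.6% for C1qc. Whether the genotype difference itself varied between litters was tested by the interaction of genotype and litter. No marker passed, with 0 calls among 16779 genes (0%) and an adjusted p of 0.962 for Tyrobp and Aif1. Their unadjusted interaction p was 0.0153 and 0.0312, so 2 of the 10 were under 0.05, against 3.87% of genes. The test had 3 residual degrees of freedom, since litters B and C each hold 1 library of each genotype.

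**Figure D3:**
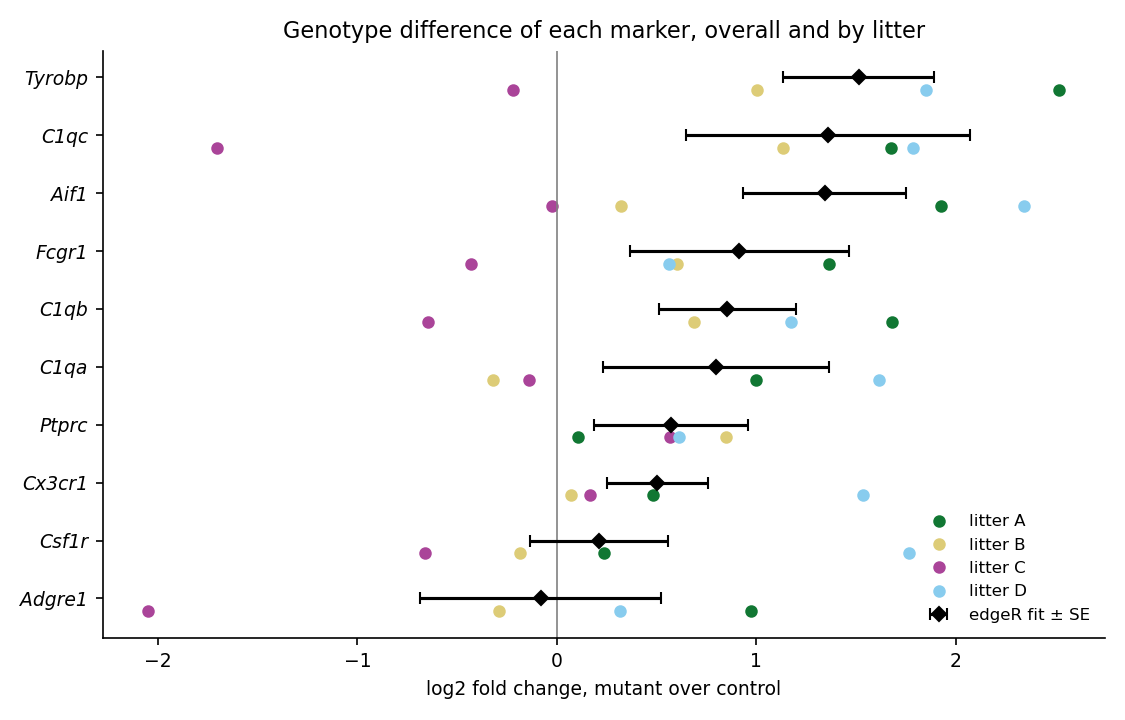
log2 fold change, mutant over control (x axis), of each marker: diamonds are the edgeR estimate with litter as a block and its SE, and circles the differences of mean log2 CPM within each litter. Tyrobp has the highest estimate at 1.51 and Adgre1 the lowest at -0.08, and the litter C circle lies below 0 for 8 of the 10.

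The 10 markers differ in length. In the count table Tyrobp, C1qa, C1qb, Aif1 and C1qc have 667, 1040, 1088, 1532 and 1931 exon bases, while Fcgr1, Adgre1, Cx3cr1, Csf1r and Ptprc have 2589, 3245, 3742, 4885 and 18313. Fold change was higher in the shorter markers: Tyrobp, C1qa, C1qb, Aif1, C1qc and Fcgr1 had log2 values of 0.80 to 1.51. The longer Adgre1, Cx3cr1, Csf1r and Ptprc had -0.08 to 0.57. The order was not strict: Fcgr1 at 0.92 was above C1qa and C1qb, and Ptprc, the longest, was above Cx3cr1, Csf1r and Adgre1. Over all genes tested, the median log2 fold change was 0.17 for exon lengths up to 1000 bases (1213 genes), 0.088 for those over 1000 and up to 2000 (2413 genes) and -0.035 for those over 4000 and up to 8000 (5076 genes). With offsets per library that level this relation, added after seeing the data, the values were 1.33 for Tyrobp, 0.71 for C1qb, 1.29 for C1qc, 1.25 for Aif1, 0.90 for Fcgr1, 0.64 for Ptprc, 0.62 for C1qa, 0.54 for Cx3cr1, 0.27 for Csf1r and -0.060 for Adgre1. No marker has a run of T over 14 bases in M21. In a fit that held the T-run index as covariate, also added later, Tyrobp was at 0.94 (p 0.123), Aif1 at 0.90 (p 0.187) and C1qb at 0.61 (p 0.294) by edgeR. In that fit Cx3cr1 was at 0.86, Ptprc at 0.49, Fcgr1 at 0.26, Csf1r at 0.19, C1qa at -0.030, C1qc at -0.82 and Adgre1 at -1.34. With the haemoglobin share as a covariate, Tyrobp was at 1.64 (p 0.00367), Aif1 at 1.35 (p 0.0159), C1qb at 1.12 (p 0.0188) and Cx3cr1 at 0.69 (p 0.0351), unadjusted. C1qc was at 0.37 (p 0.665) and C1qa at 0.47 (p 0.528) in the same fit, both lower than without the covariate. Fcgr1 was at 0.74, Ptprc at 0.40, Csf1r at 0.22 and Adgre1 at -0.079. None of the 10 passed the adjusted threshold in any of these 3 fits.

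Compared per exon length, as RPKM (CPM divided by exon length in kilobases), Tyrobp (7.32 ± 5.63, SD, n = 11) and C1qb (6.81 ± 4.51) stood above the other 8. Tyrobp was above C1qb in 6 of 11 libraries, so their order was not set, while C1qb was above Aif1 in all 11. Aif1 (0.942), Cx3cr1 (0.658), C1qa (0.577), C1qc (0.546) and Csf1r (0.422) followed. Each of these was above the next in 6 to 9 of 11 libraries, and their differences were within 1 SD. Fcgr1 was at 0.311, Adgre1 at 0.206 and Ptprc at 0.0492. The low value of Ptprc goes with its 18313 exon bases, a sum over all annotated transcripts.

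The ratio of Tyrobp to C1qb reads did not overlap between the groups. Tyrobp reads per C1qb read were 0.349, 0.475, 0.557, 0.583 and 0.429 in controls 1 to 5 and 0.719, 0.802, 0.814, 0.686, 0.789 and 0.70 in mutants 1 to 6. Every mutant lay above every control, including mutant 5, whose reads of both genes were below those of its littermate. The ratio was picked out after seeing the values and was not tested. Of the 45 pairs of markers, 21 had reads of both genes in all libraries, and this was the 1 pair of those whose ratio did not overlap. The share among pairs of other genes was not computed, so this count has no background. Tyrobp reads per Csf1r read, pooled, were 1.30 in controls and 3.34 in mutants, and Aif1 reads per Csf1r read were 0.430 and 0.952. The libraries overlapped in both of these ratios, where control 5 rests on 3 reads of Csf1r. Tyrobp is shorter than C1qb, and the part of length in this ratio was not tested separately.

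**Figure D4:**
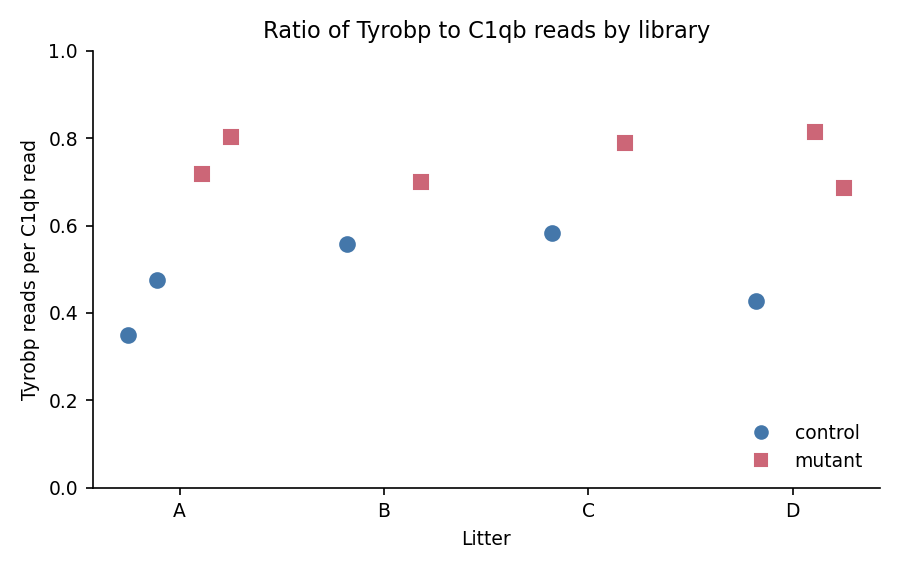
Tyrobp reads divided by C1qb reads (y axis) in each library by litter (x axis); circles are controls and squares mutants. Controls run from 0.349 to 0.583 and mutants from 0.686 to 0.814.

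Other macrophage genes came from lists, as did the groups that follow. Beyond genes that passed the test and the most abundant genes of a list, those given by name were chosen after their values were seen. Of 25 further surface, lysosomal and Fc receptor genes, 19 were tested and 0 passed. The median log2 fold change was 0.34, with 14 of the 19 above 0, against 50.7% of all genes, and 3 higher at an unadjusted p under 0.05, against 9.84%. These 3 were Fcer1g (0.73, p 0.0135), which pairs with Fc receptors as an adaptor, the lysosomal protease Ctss (1.09, p 0.0389) and the lipid receptor Trem2 (1.47, p 0.0449), which signals through Tyrobp. The most abundant were Lgmn (54.97 CPM in controls and 57.3 in mutants), Stab1, Laptm5 and Sirpa. Of these, Lgmn was at a log2 fold change of 0.047, Stab1 at -0.099 and Laptm5 at 0.34 (edgeR adjusted p 0.793, 0.734 and 0.457). Levels within the list ranged widely. Mrc1 and F13a1, also genes of tissue macrophages, had 241 and 262 reads over all libraries, while Cd163 had 0 and Timd4 had 9. Lyve1 had 54 reads and was below the filter for testing, with 6, 10, 7, 9 and 7 reads in controls and 2, 3, 1, 4, 3 and 2 in mutants.

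Of 10 transcription factors used by macrophages, 8 were tested and 0 passed, with a median of 0.06. The most abundant, Id3, Zeb2, Maf and Nr1h3, which limb and vessel cells also express, had log2 fold changes of -0.03 to 0.14. Irf8, which with PU.1 directs the macrophage program, was the 1 factor of the 8 that was higher at an unadjusted p under 0.05, against 9.84% of all genes (0.85, SE 0.37, p 0.0399, edgeR adjusted p 0.214). Spi1 had 40 reads in all 11 libraries and was not tested. Of 13 ligands of Csf1r and myeloid signalling genes, 12 were tested and 0 passed (median 0.17). Csf1 was at 1.96 CPM in controls and 1.56 in mutants (log2 fold change -0.17), and Il34 had 2 reads in all. Plcg2, a phospholipase downstream of Tyrobp-linked receptors, was at 0.42 (SE 0.19, edgeR adjusted p 0.225), with all 4 litter differences above 0.

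A few chemokines that draw phagocytes had higher mutant means in every litter, at very low levels and without passing the threshold. Of 12 attractant genes and their receptors, all were tested and 0 passed, the median was 0.31, and 4 of the 12 were higher at an unadjusted p under 0.05, against 9.84% of all genes. Ccl2 had 8, 1, 9, 0 and 0 reads in controls 1 to 5 and 24, 16, 10, 8, 1 and 22 in mutants 1 to 6 (log2 fold change 2.29, SE 0.60, p 0.00244). Its mutants exceeded the controls of their own litter in each case, though mutant 5 had 1 read. Ccl3 had 3, 3, 3, 7 and 1 reads in controls and 14, 14, 9, 8, 8 and 6 in mutants (1.74, SE 0.48, p 0.00337). Ccl4 had 1, 0, 5, 2 and 0 reads in controls and 5, 25, 0, 2, 4 and 12 in mutants (2.70, SE 0.86, p 0.00855). Panx1, the channel that releases nucleotides from dying cells, was at 0.30 (SE 0.09, p 0.00670, edgeR adjusted p 0.0942). The attractants Cxcl12 and Thbs1 were at -0.28 and -0.32, and Cx3cl1, the ligand of Cx3cr1, at 0.31.

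Genes that carry out engulfment did not move together. Of 26 listed, 25 were tested. Rac1, the GTPase that drives the phagocytic cup, rose in mutants by 0.27 on the log2 scale (SE 0.059, edgeR adjusted p 0.0464). Controls had 77.0 ± 3.99 CPM (SD, n = 5) while mutants had 93.2 ± 5.71 CPM (SD, n = 6). It was the 1 gene of the list to pass, where 0.702% of all genes passed as higher and 1.48% as lower, and it is expressed by all cells of the bud. The median was -0.03, with 11 of the 25 above 0, against 50.7% of all genes. Rac2, the blood cell form of Rac, was at 0.91 (SE 0.31, p 0.0118). At an unadjusted edgeR p under 0.05, 3 of the 25 were higher, against 9.84% of all genes, and 2 were lower. The share of all genes lower at that p was not computed. The 3 were Rac1, Rac2 and Itgav (0.29, p 0.0326), the last higher in all 4 litters without passing. The 2 lower were the receptors Mertk and Cd36, which bind dying cells directly or through bridging proteins. They were at -0.38 (p 0.0423) and -1.17 (p 0.00118), without passing. Cd36, also a gene of vessels and muscle, had 36, 30, 34, 32 and 54 reads in controls and 9, 18, 23, 18, 17 and 12 in mutants. In CPM the groups met, with mutant 3 at 1.545 and control 2 at 1.544, and all 4 litter differences were below 0 (edgeR adjusted p 0.0515).

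In the complement list, 10 of 13 genes were tested and C1qbp rose, by 0.52 on the log2 scale (SE 0.11, edgeR adjusted p 0.0406). Controls had 75.8 ± 14.0 CPM (SD, n = 5) while mutants had 109 ± 8.43 CPM (SD, n = 6). It was the 1 gene of the list to pass, where 0.702% of all genes passed as higher and 1.48% as lower. The list median was 0.31, with 6 of the 10 above 0, against 50.7% of all genes. C1qbp was named for binding C1q but acts mainly in mitochondria of all cells. C3ar1, the macrophage receptor for the C3a fragment, had 20, 15, 43, 29 and 3 reads in controls and 61, 34, 12, 18, 10 and 107 in mutants (1.13, SE 0.41, p 0.0183, without passing). Mutant 5 was again below its littermate.

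**Figure D5:**
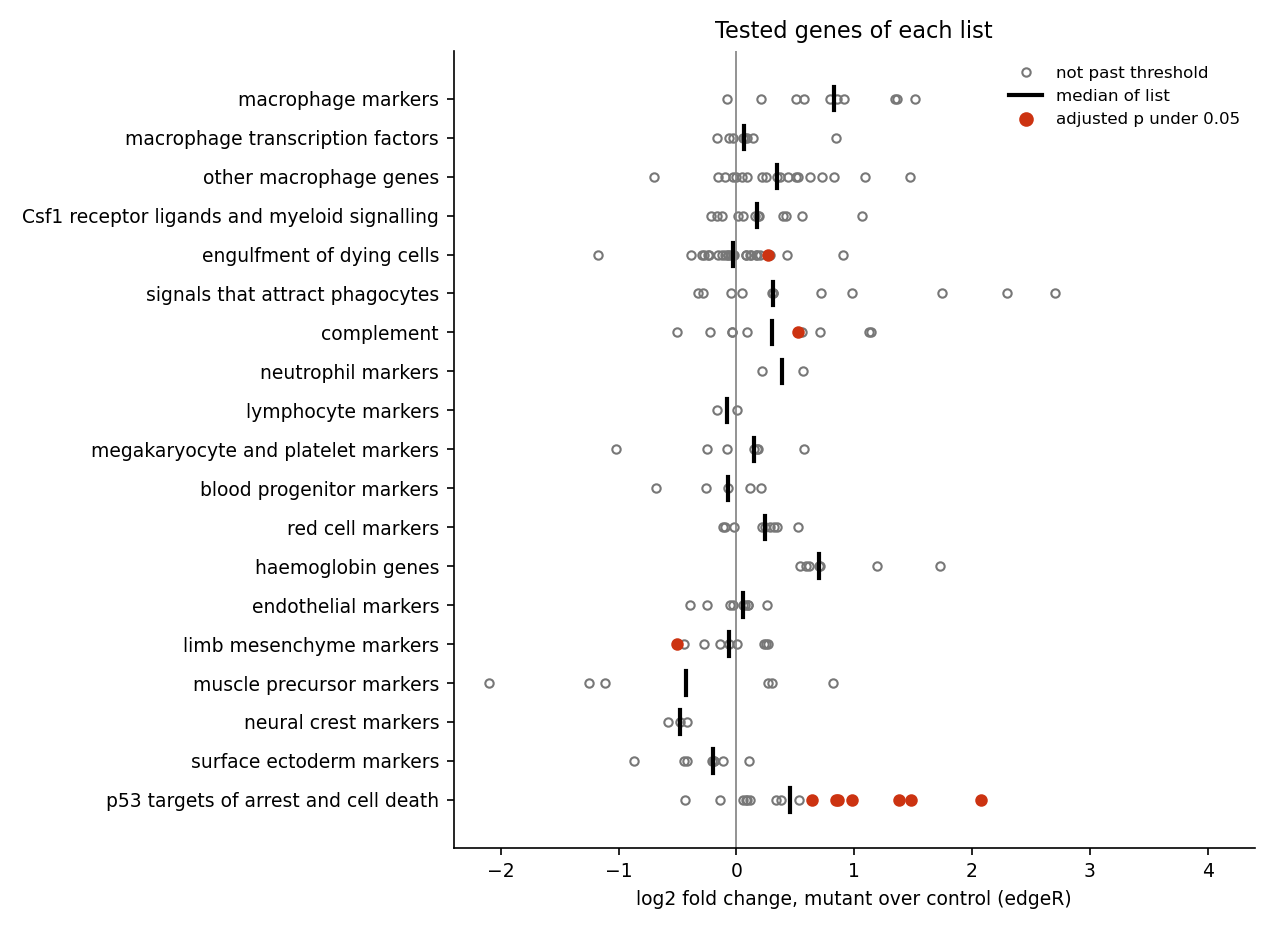
log2 fold change, mutant over control (x axis), of every tested gene in each list (rows); filled red circles passed an edgeR adjusted p of 0.05, open circles did not, and black bars are list medians. The macrophage marker median is 0.83 with no filled circle, and the p53 target list holds 7 filled circles.

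Markers of other cells give the setting. Most listed genes of neutrophils and mast cells had few reads: S100a8 and S100a9 had 38 and 16 reads in all 11 libraries, and Tpsb2 and Fcer1a had 0. S100a8 had 24 of its reads in mutant 2, the library with the most haemoglobin. Of 10 neutrophil genes 2 were tested and 0 passed. These were Prtn3 (1003 reads in all, log2 fold change 0.21) and Mpo (401 reads, 0.57). The summed neutrophil level ran from 3.01 to 9.65 CPM in controls and 6.54 to 13.7 in mutants. Of 8 platelet genes 7 were tested and 0 passed, with Pf4 at 0.18 and a summed level of 23.5 to 85.3 CPM in controls and 27.4 to 71.8 in mutants. The summed platelet and neutrophil levels were lowest in control 5, as that of macrophage markers was. Haemoglobin genes had a median of 0.70 over 7 genes with 0 calls, red cell genes other than globins 0.24 over 9 with 0 calls, and endothelial genes 0.05 over 9 with 0 calls. Endothelial genes summed to 316 CPM in control 5, within the 224 to 356 CPM of all controls. The part of blood in the marker reads was not tested beyond the covariate fit.

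Among 16 targets of p53 that act in arrest and cell death, 7 rose and 0 fell, with a median of 0.46. Of all genes, 0.702% passed as higher and 1.48% as lower. Ccng1 (1.48, SE 0.12, edgeR adjusted p 0.000407) and Eda2r (2.08, SE 0.23, edgeR adjusted p 0.00550) were among them, each higher in 4 of 4 litters. Markers of limb mesenchyme, the tissue in which Cre acts, had a median of -0.07 over 9 genes with Lhx9 lower (-0.50, SE 0.10, edgeR adjusted p 0.0406). Ccng1 was higher in mutants in each litter, by 1.29 log2 units in litter C. Of the 10 macrophage markers, 10, 7, 2 and 10 were higher in mutants in litters A to D. A link between p53 targets and the markers was not tested.

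The markers varied together across libraries, as a description over 11 libraries that share depth and litter. The log2 CPM of each marker against the summed level of the other 9 had a Pearson r of 0.76 (Ptprc) to 0.93 (Tyrobp) and a Spearman rho of 0.75 (C1qc) to 0.95 (C1qb). Of 12098 other genes with a mean of at least 1 CPM, the 8 closest to the summed level were Fcer1g (r 0.97, rho 0.95), Evi2a (0.96, 0.92), Hoxa11os (0.96, 0.90), Rac2 (0.96, 0.97), Laptm5 (0.94, 0.96), Tmem30b (0.94, 0.94), Lyz2 (0.94, 0.90) and Cd52 (0.94, 0.89). Fcer1g, Rac2, Laptm5, Lyz2 and Cd52 are known genes of blood cells, Evi2a is expressed in leukocytes, and Hoxa11os is an antisense transcript of the limb gene Hoxa11. Hoxa11os was lowest in control 5 at 14.0 CPM and highest in control 3 at 55.4 CPM, where mutant 6 of the same litter had 54.2 CPM. Counting ignored strand, so its value is uncertain where it overlaps Hoxa11.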

How the data were processed

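The deposited table holds raw counts. The authors summed reads over the exons of each gene name by featureCounts 1.4.6-p4 on mm10 with GENCODE M9 and a mapping quality of at least 10, per the file headers. STAR 2.5.4b is named as a tool per the submitters' processing notes. The header command sets no strand option. It names 12 alignments, of which 11 columns were used. Ribosomal RNA was depleted from total RNA, per the labels' protocols. The exon length per gene name is also the authors' own, per the file headers.

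Tests used edgeR 4.0.16 under R 4.3.3, and limma 3.58.1 for an alternative. The edgeR function filterByExpr kept 15821 genes, among them all 10 markers, and TMM factors scaled the totals. The quasi-likelihood F test was two-sided with litter as a block and Benjamini-Hochberg adjustment over all genes tested, at a threshold of 0.05. Log2 CPM used a prior count of 2. Single genes were also tested by exact permutation of genotype within litters, over 72 arrangements and 10 genes, without adjustment over the genes. The fit was tested on simulated data. The T-run index is the mean log2 CPM of 959 genes with T runs of at least 18 bases minus that of genes with runs of at most 5, in M21.

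Litter comes from the titles, and the design text says embryos were matched by litter, so the pairing was taken from the labels. Replicates are numbered in accession order. Apart from the fit with no block, p-values set the difference against the spread that remains between these libraries after litter is accounted for.

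The markers and all gene lists were chosen with earlier results of these data known. Named genes were the 10 markers, genes of each list past the threshold or else its most abundant genes, Gmnn, and the 8 genes closest in pattern; others are said to be named after their values were seen. Alternatives were RLE and upper-quartile scaling, other filters, DESeq2 1.42.0, limma-voom, no block, removal of haemoglobin, mitochondrial and ribosomal RNA genes, and leaving out each library or litter. Another 3 (T-run index, haemoglobin share, length offsets) were chosen after seeing the data.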

Additional observations from a re-analysis of the deposited data

Results flagged for a closer look

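Within each genotype, each extreme library was set against its nearest neighbour, relative to the range of the group, for the 10 markers, their sum and the haemoglobin share, 48 comparisons in all. Chance flags about 1 in 20 groups. C1qa stood at 2.05 CPM in mutant 2, where the next mutant had 0.675 CPM and the lowest 0.178. Without mutant 2 the log2 fold change of C1qa was 0.26 in place of 0.80. The haemoglobin share was 5.44% in mutant 2, where the other mutants had 1.69% to 2.76%. No marker differed between litters in its genotype effect by the adjusted interaction test.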

How the results depend on the processing

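Depth limits these genes: 3 reads equal 0.154 to 0.21 CPM, and several markers had fewer than 10 reads in some libraries. Over the alternatives, 236 of 254 fitted values of single markers kept their direction and were not seen to change their side of the threshold. Another 6 passed it and 12 turned direction. DESeq2 gave no adjusted p for C1qa, C1qc, Fcgr1, Ptprc, Aif1 and Adgre1, so their side is unknown there. All of these but Adgre1 were counted as kept. Tyrobp stayed between 0.83 and 1.97 and Aif1 between 0.81 and 1.69 in all alternatives. Their adjusted p ran from 2.67e-10 to 0.567 and from 0.00307 to 0.638, with none given for Aif1 by DESeq2. In the 11 fits that left out 1 library, the unadjusted p of Tyrobp was at most 0.00673 and that of Aif1 at most 0.0220, both without control 5. Those fits never removed a whole litter of more than 2 libraries. Without litter A, Tyrobp was at 0.83 (edgeR adjusted p 0.308), Aif1 at 0.81 (0.495) and C1qb at 0.40 (0.582). Each was the lowest value of that gene over the alternatives.

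The number of markers past the threshold was 0, except for 4 (C1qb, C1qc, Tyrobp and Aif1) without a filter on low counts, 1 (Tyrobp) with at least 1 CPM in at least 5 libraries and 1 (Tyrobp) with DESeq2. DESeq2 gave an adjusted p only for Csf1r, C1qb, Cx3cr1 and Tyrobp. Leaving out each library gave 0 markers. The cause was not tested. Csf1r was at -0.11 with no replicate block, at -0.080 without control 5 (-0.080 to 0.44 over the libraries left out) and at -0.079 without litter D. C1qa was at -0.030 and C1qc at -0.82 with the T-run covariate. Adgre1 was at 0.027 with DESeq2, at -0.34 to 0.63 over the libraries left out (above 0 without control 3, control 4, mutant 5 or mutant 6), at 0.054 without litter B and at 0.61 without litter C. The exact permutation p of C1qb was 0.0556, and 0.0417 with a prior count of 0.5 (difference 0.95).

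Over all genes, 345 passed. The count was 1566 without the filter, 550 with the CPM filter, 1194 with DESeq2, 16 with no replicate block, 9, 3, 1 and 148 without litters A to D, 2 with the T-run covariate, 10 with the haemoglobin covariate and 590 with length offsets. Leaving out 1 library gave 1 (without control 4 or mutant 5) to 850 (without control 5), so that single libraries decide adjusted p-values here. The interaction gave 438 calls without the filter and 0 otherwise. With the litter block removed no marker passed. The summed marker difference of 1.03 log2 units ran from 0.755 (without litter A) to 1.37 (without litter C) over the alternatives run for it. Each kept its sign.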
